A study of Mus musculus with 48 samples.

Results

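Forebrain and heart of CD-1 mouse embryos at embryonic day E11.5 were compared by the regions that carried H3K27ac, histone H3 acetylated at lysine 27. Each tissue had 2 chromatin immunoprecipitation libraries, replicates 1 and 2, and each library had its own deposited peak list. Peaks of the 4 lists that touched by 1 bp or more were joined into 39246 elements, out of 86181 elements when all 24 H3K27ac lists of the series are joined in the same way. An element was forebrain-only when both forebrain lists and neither heart list had a peak in it, heart-only in the reverse case, and shared when all 4 lists did. By that rule 1861 elements were forebrain-only (4.74% of the 39246), 12927 were heart-only (32.9%) and 8419 were shared (21.5%), 23207 in all. These counts follow from the rule and carry no test.

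H3K27ac is laid down by the acetyltransferases p300 and CBP on nucleosomes that flank active enhancers and active promoters. Enhancers tend to carry the mark only in the tissues in which they work, whereas promoters of widely expressed genes carry it in most tissues. Forebrain at this stage is largely made of dividing neural progenitors with the first neurons forming among them. The heart is by then beating and holds cardiomyocytes, endocardium and other endothelial cells, mesenchymal cells of the cushions, early epicardium and blood. All libraries are from the CD-1 strain, and the labels give no genotype or treatment. Whole tissue from several embryos was pooled for each library, so a region marked in fewer cells and a region marked more weakly in every cell cannot be told apart. Nothing in the labels says that the replicates came from separate litters, so the spread between them may be technical. Each library had a matched input library, which is sonicated DNA taken before immunoprecipitation. The labelled tissues were not checked against marker genes, because no annotation of the build of the files (mm9) was used here, and elements are given by their mm9 position alone.

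The forebrain lists held 15823 and 11871 peaks, against 32289 and 27181 in the heart lists. Uniquely mapped reads did not run in that order, at 18120244 and 27139523 in the forebrain libraries and 16354169 and 20315012 in the heart libraries. Forebrain replicate 2 had the most reads of the 4 libraries and the shortest list. Forebrain peaks covered 39.9 and 28.3 Mb of the genome and heart peaks 82.9 and 75 Mb, while median peak widths were close, at 2181 and 2072 bp in forebrain and 2130 and 2301 bp in heart. The share of reads that mapped uniquely was 74.8% and 72.8% in forebrain and 78.4% and 77.4% in heart. Input lists held 17 to 29 peaks, and at most 1 peak of any H3K27ac list overlapped a peak of its own input. All 4 libraries have names of the same series in the file headers (IO). The smaller number of forebrain-only than heart-only elements therefore comes with forebrain lists about as deep as the heart lists in reads and shorter in peaks, and what set the list length was not tested.

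Heart-only was the commonest of the 15 patterns of marking, followed by shared. Of the 10815 elements marked in both forebrain lists, 77.8% were shared and 17.2% were forebrain-only. Of the 24083 elements marked in both heart lists, 35.0% were shared and 53.7% were heart-only. The other 16039 elements (40.9%) had incomplete patterns. A peak in 1 list alone accounted for 12198 of them, 2028 in forebrain replicate 1, 454 in forebrain replicate 2, 7096 in heart replicate 1 and 2620 in heart replicate 2. The longer list of each tissue thus held most of that tissue's unreplicated elements. A further 2376 elements were marked in both heart lists and in forebrain replicate 1 but not in the shorter forebrain replicate 2. Without forebrain replicate 2 the forebrain-only count was 3889, and without heart replicate 2 the heart-only count was 20023.

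**Figure D1:**
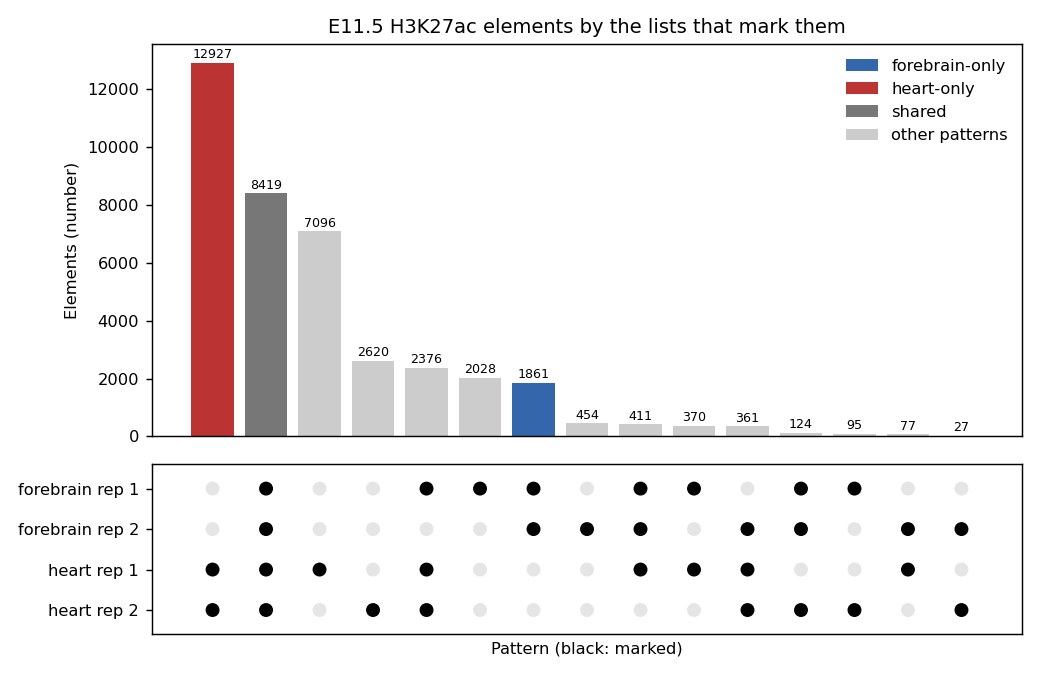
Number of elements (y axis) with each pattern of marking over the 4 E11.5 lists; black dots under a bar show the lists with a peak. Heart-only elements (12927) and shared elements (8419) outnumber forebrain-only elements (1861), which are also fewer than the 2028 elements marked in forebrain replicate 1 alone.

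Replicates of a tissue resembled each other more than lists of different tissues did. The Jaccard index, the number of elements marked in both lists over the number marked in either, was 0.651 between the forebrain replicates and 0.690 between the heart replicates. Between forebrain and heart lists it lay between 0.269 and 0.348. The means were 0.671 within tissues and 0.309 between them, a difference of 0.361. Measured over base pairs in place of elements the difference was 0.377. Both differences were the largest of the 3 ways to split 4 lists into pairs (exact permutation test, two-sided, p = 0.333, which is the smallest p that 2 lists a tissue can give), so this design cannot pass a threshold of 0.05. In forebrain, 68.7% of the peaks of replicate 1 overlapped a peak of replicate 2 and 92.0% the other way round. In heart, 75.3% of the peaks of replicate 1 overlapped a peak of replicate 2 and 89.4% the other way round.

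The best peaks of either tissue were shared, and the tissue-only classes sat lower in the authors' ranking. Each peak carries a rank within its own list, read here as 1 for the best. The quantity ranked is not given in the sources used here. Lists were cut into deciles of rank, with decile 1 the best. In decile 1, shared elements held 94.9% and 94.5% of the forebrain peaks and 89.3% and 90.1% of the heart peaks. Forebrain-only elements held 3.22% and 3.62% of that decile in the forebrain lists, and heart-only elements held 4.89% and 4.75% of it in the heart lists. The lists then diverged, in a way that cannot be told apart from their lengths. Decile 5 held 3229 and 2718 peaks in the heart lists, against 1582 and 1187 in the forebrain lists. A heart peak counts as shared only if both of the shorter forebrain lists have a peak in its element. In decile 5, forebrain-only elements held 12.5% and 14.6% of the forebrain peaks with 64.2% and 77.5% still shared, whereas heart-only elements held 67.0% and 59.6% of the heart peaks with 14.2% and 21.9% shared.

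On a scale of rank percentile, on which 100 is the best peak of a list, forebrain-only elements had a median of 39.5 in forebrain replicate 1 and 30.1 in replicate 2. Heart-only elements had medians of 46.5 and 37.5 in the 2 heart lists. Shared elements had medians of 70.1 and 60.1 in the forebrain lists and 84.4 and 81.4 in the heart lists. In all 4 lists the shared median was above the tissue-only median by more than 20 percentile points. Elements of the 3 classes also differed in extent, with a median width of 2740 bp for forebrain-only, 2482 bp for heart-only and 3093 bp for shared elements. Elements of 10 kb or more made up 34 of the forebrain-only elements (1.83%), 158 of the heart-only elements (1.22%) and 211 of the shared elements (2.51%).

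**Figure D2:**
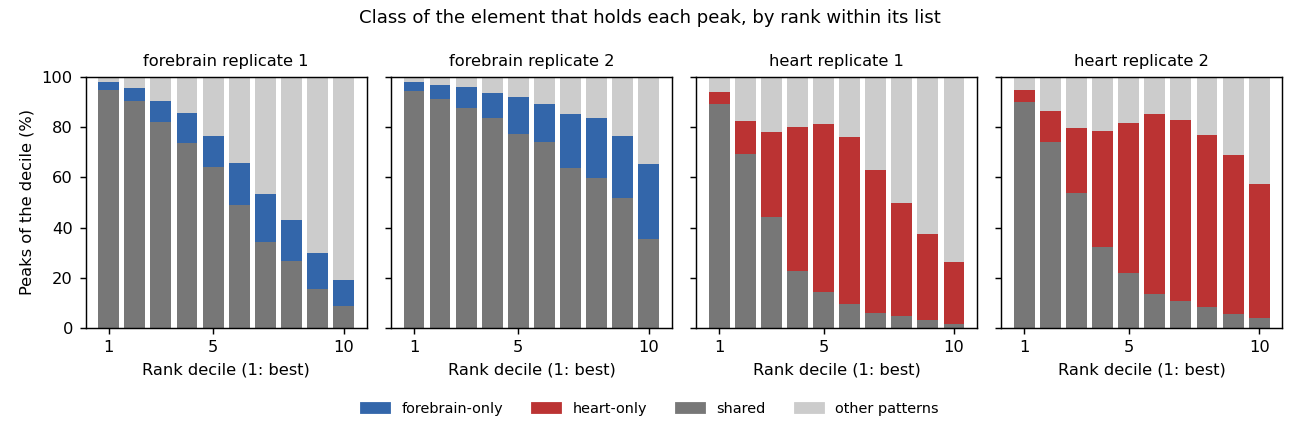
Share of the peaks of each decile of a list (y axis, percent; x axis, rank decile with the best at 1) that lie in shared, tissue-only and other elements, for the 4 E11.5 lists. Shared elements hold 89.3% to 94.9% of decile 1 of every list. Heart-only elements hold most of decile 5 of the heart lists (67.0% and 59.6%), which are longer than the forebrain lists.

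The gap between the forebrain-only and heart-only counts was not seen at equal list lengths. When every list was held to its 11871 best peaks, the length of the shortest list, 2643 elements were forebrain-only, 2608 were heart-only and 6552 were shared. The forebrain-only and heart-only counts stayed close at every shorter length tried, with 137 forebrain-only and 114 heart-only elements at the best 500 peaks and 1099 and 1035 at the best 5000. Holding every list to the same length itself brings these counts together, since each tissue then has as many peaks as the other. Their closeness therefore cannot show whether the tissues have like numbers of tissue-only elements. Elements called absent at equal list lengths may still have a weaker peak in the other tissue. When absence was judged against the whole lists of the other tissue, in a comparison added after the data were seen, 1348 forebrain-only and 2192 heart-only elements were left.

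Peak by peak, few of the best ranked peaks had no peak of the other tissue at all. Among the best 1000 peaks the share was 3.0% (95% exact interval 2.03 to 4.26) and 3.40% (2.37 to 4.72) in the forebrain lists and 3.3% (2.28 to 4.60) and 3.10% (2.12 to 4.37) in the heart lists. The 4 intervals overlap. Among the best 11871 the share was 16.1% and 20% in forebrain, against 25.3% and 26.2% in heart. The forebrain peaks were set against longer lists than the heart peaks were, so the order of the last 4 values cannot be told apart from the lengths of the lists. Intervals here are Clopper-Pearson intervals and cover counting error only.

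**Figure D3:**
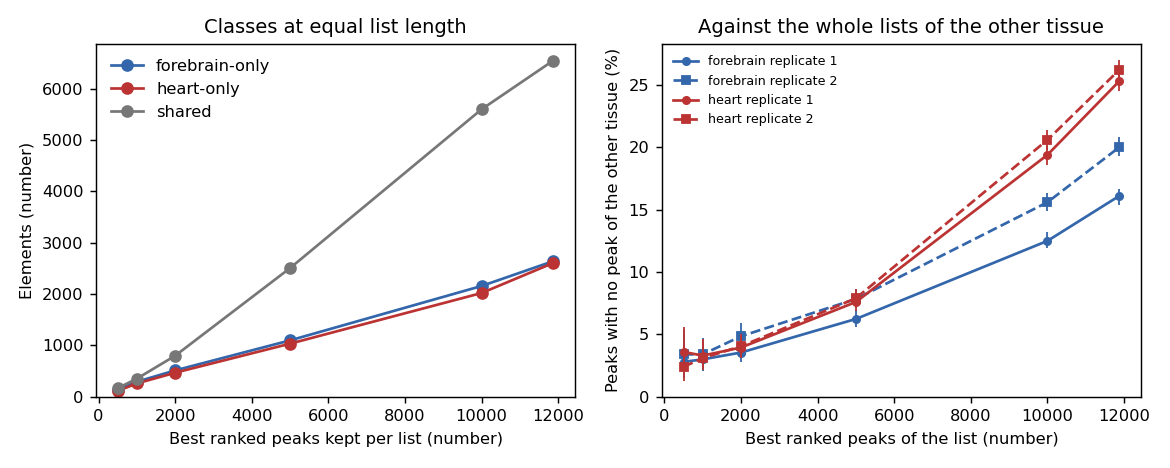
Left, number of elements of each class (y axis) when each list is held to its best ranked peaks (x axis); right, percent of the best ranked peaks of a list with no peak in either whole list of the other tissue, with 95% Clopper-Pearson intervals as bars. Forebrain-only and heart-only counts run together at equal lengths (2643 and 2608 at 11871 peaks), which the equal lengths themselves largely bring about. At the best 1000 peaks all 4 lists lie between 3.0% and 3.40%.

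The 10 forebrain-only elements with the highest mean rank percentile ranged from 3196 to 32324 bp in width, and 5 of them were 10 kb or wider. The best of them, chr3:17683250-17697838, ranked 158 and 105 in the forebrain lists, where peaks covered 14262 and 14125 bp of it, with no peak in either heart list. It had a peak in the forebrain lists of all 6 later stages and in none of the 6 later heart stages or the 7 liver stages. Next came chr15:72848946-72854013, which ranked 163 and 114 and was much narrower, with 4325 and 4860 bp covered. The element at chr3:87998018-88030341 ranked 439 and 67 in forebrain and was 1 unbroken peak of 32324 and 26969 bp. Of the 10 elements, 8 were marked at all 6 later forebrain stages, 8 at no later heart stage and 9 at no liver stage. The 5 widest forebrain-only elements spanned 31618 to 44015 bp, the widest being chr7:86640168-86684182, with 43789 and 40855 bp covered. All 5 were marked at every later forebrain stage and at no heart or liver stage.

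The 10 best ranked heart-only elements ranged from 8081 to 38463 bp in width, with 8 of them 10 kb or wider, and most were also marked in liver. The best, chr8:59787217-59825679, ranked 9 and 114 in the heart lists, with 37985 and 35847 bp covered and no peak in either forebrain list. It was marked at none of the 6 later forebrain stages, at all 6 later heart stages and at 6 of the 7 liver stages. The second, chr14:63848972-63877513, ranked 69 and 95 with 28542 and 23179 bp covered. Its near neighbour chr14:63878976-63893864, was seventh of the 10 and ranked 206 and 327. Of the 10 best ranked heart-only elements, 7 were marked at no later forebrain stage, 9 at 5 or more later heart stages and 7 at 5 or more liver stages. An exception in forebrain was chr17:82125528-82143463, which ranked 110 and 312 in heart and was marked at 5 of the 6 later forebrain stages and 1 liver stage. The pair chr1:137688972-137702040 and chr1:137729015-137744554, ranked 308 and 106 and ranked 364 and 382, had a peak in 1 and in 0 liver lists. Trimming peaks to 1 kb around their middle kept 10 of the 10 best forebrain-only elements in their class but 4 of the 10 best heart-only elements.

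The best ranked shared elements were near the head of every list. The first, chr2:164735149-164739006, ranked 3 and 3 in forebrain and 3 and 2 in heart, and covered 2754 and 2604 bp in forebrain and 3451 and 3858 bp in heart. All 5 best shared elements were marked at all 6 later forebrain stages, at 5 or more of the 6 later heart stages and at 5 or more of the 7 liver stages. Across the class, 89 of the 8419 shared elements (1.06%) had no base covered by all 4 lists, and the median length covered by all 4 was 1915 bp.

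Lists of other stages, which the rule did not use, showed how far the classes held. Each of these tissues and stages has 1 list, except forebrain P56 with 2, so most of these shares have no replicate check. The stages called P0 and P21 in the sample labels are P1 and P20 in the list headers, and the labels are followed here. Of the forebrain-only elements, 91.6% had a peak in the forebrain list at E14.5 (95% interval 90.3 to 92.8) and 7.95% in the heart list of that stage (6.76 to 9.28). Over all 39246 elements the shares at E14.5 were 48.2% in forebrain and 69.2% in heart. At later stages the forebrain-only elements were marked in forebrain at 63.9% (E17.5), 75.1% (P0), 73.0% (P7), 28.9% (P21) and 58.7% (P56). Over all elements the forebrain shares at those stages were 38.4%, 46.9%, 52.6%, 31.0% and 52.0%. At P21 the class thus lay below the share over all elements, and at P56 it was near it. In heart the forebrain-only elements were marked at 3.82%, 13.6%, 12.4%, 2.63% and 17.6% at the same stages, beside 53.3%, 69.7%, 64.3%, 11.8% and 63.0% of all elements. The forebrain share was above the heart share at each of the 6 stages, with the classes made from whole lists.

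Of the heart-only elements, 21% had a peak in the forebrain list at E14.5 (20.3 to 21.7) and 85.5% in the heart list (84.9 to 86.1). Their later shares in forebrain were 14.3% (E17.5), 26.1% (P0), 37.2% (P7), 14.3% (P21) and 40.2% (P56). Their shares in heart were 63.2%, 81.7%, 74.1%, 19.9% and 69.1% at those stages. Over all elements the heart shares were 69.2% at E14.5 and 53.3%, 69.7%, 64.3%, 11.8% and 63.0% at those stages. The class lay above these at each stage, and at P56 it was near the share over all elements. In forebrain it lay below the share over all elements at each stage. With the classes made from whole lists, the heart share was the higher one at each stage. Averaged over the 6 stages, forebrain-only elements were marked at 65.2% in forebrain and 9.68% in heart, and heart-only elements at 25.5% in forebrain and 65.6% in heart.

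These shares depended on list length. With classes rebuilt from the 11871 best peaks of each E11.5 list, an alternative chosen after the data were seen, an element may still have a weaker peak in the other tissue at E11.5. The 2643 forebrain-only elements of that kind were marked in heart at 40.4% (E14.5), 23.8% (E17.5), 40.1% (P0), 35.1% (P7), 6.43% (P21) and 38.5% (P56), and in forebrain at 40.3% to 95.5%. Forebrain marking of these elements remained the higher at each stage, but their heart shares were above those of the classes from whole lists at all 6. The 2608 heart-only elements were marked in forebrain at 42.3%, 33.7%, 47.8%, 61%, 33.9% and 62.1% at the same stages. In heart they were marked at 31.5% at P21 and at 91.2% to 97.7% at the other 5 stages. At P21 the order thus turned for heart-only elements, with 33.9% in forebrain and 31.5% in heart. At E14.5 the shares in the other tissue were 40.4% for forebrain-only and 42.3% for heart-only elements. The rebuilt classes are not alike, so the closeness of these values cannot show like marking in the other tissue. When absence was judged against the whole E11.5 lists of the other tissue, 1348 forebrain-only and 2192 heart-only elements were left. More of the rebuilt forebrain-only elements thus already had a peak in the other tissue at E11.5. Means over the 6 stages were 74.4% in forebrain and 30.7% in heart for forebrain-only elements, and 46.8% in forebrain and 84.4% in heart for heart-only elements.

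Some of these lists differ in more than tissue. At P21 the forebrain list marked 81.3% of the shared elements and the heart list, which at 7376 peaks is the shortest H3K27ac list of the series, marked 7.93%. The heart list at P56 marked 92.0% of the shared elements. The heart list at P21 marked a higher share of the heart-only elements, 19.9%, than of the shared ones, and the reason was not tested. Without heart P21 the heart-only mean in heart was 74.7%. The later forebrain lists come from libraries named IO, and the heart lists from E14.5 to P21 from libraries named LPAN, so that name series and tissue cannot be told apart there. At P56, where the forebrain and heart lists are both IO, 58.7% of the forebrain-only elements were marked in forebrain and 17.6% in heart, and 40.2% of the heart-only elements were marked in forebrain and 69.1% in heart. A second P56 forebrain library, named LPAN, marked 44.1% of the forebrain-only elements and 30.9% of the heart-only elements, beside 44.3% of all elements.

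Liver, the third tissue of the series, separated the classes further. The liver list at E11.5, with 20269 peaks from an LPAN library, had a peak in 5.21% of the forebrain-only elements (4.25 to 6.32), 31.8% of the heart-only elements (31.0 to 32.7) and 85.7% of the shared elements (85.0 to 86.5), beside 39.6% of all elements. Over the 7 liver stages the range was 2.31% to 13.8% for forebrain-only, 16.4% to 52.0% for heart-only and 67.6% to 90.2% for shared elements. In every liver list the forebrain-only share was the lowest of the 3. With classes rebuilt from lists of equal length, the liver E11.5 shares were 19.0% for forebrain-only and 55.9% for heart-only elements. The difference in liver marking was therefore present at equal list lengths.

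Within heart-only elements, marking in other tissues went with rank. Elements of each class were cut into quartiles of mean rank. In quartile 1, the best, 48.4% were marked in liver at E11.5 and 33.1% in forebrain at E14.5. In quartile 4 the shares were 18.6% and 13.0%. Forebrain-only elements showed no such gradient, with 4.30% in liver at E11.5 and 7.96% in heart at E14.5 in quartile 1 and 5.58% and 7.51% in quartile 4. Marking in the same tissue at E14.5 followed rank in both classes, at 96.1% in quartile 1 and 85.0% in quartile 4 of the forebrain-only elements and at 96.9% and 70.9% in those of the heart-only elements. Median width also fell from quartile 1 to quartile 4, from 3832 to 2279 bp in forebrain-only and from 3433 to 1983 bp in heart-only elements. The classes are those from whole lists, where forebrain-only elements were set against the longer E11.5 lists. The part of width and list length in these shares was not tested.

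**Figure D4:**
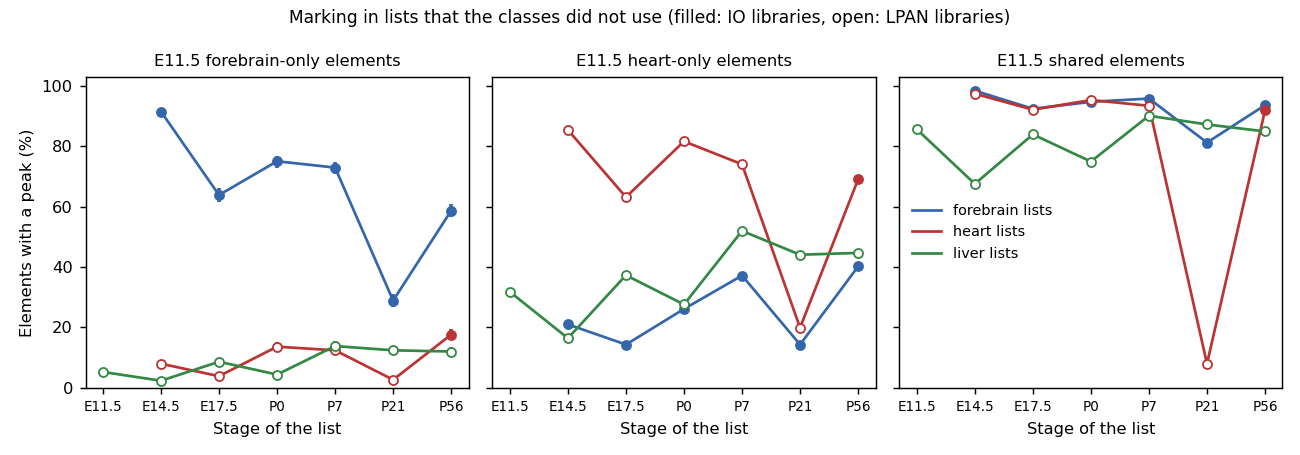
Percent of forebrain-only, heart-only and shared elements with a peak (y axis) in the forebrain, heart and liver lists of other stages (x axis), with 95% Clopper-Pearson intervals as bars; filled points are IO libraries and open points LPAN libraries. Forebrain-only elements are at 28.9% to 91.6% in forebrain and at most 17.6% in heart and 13.8% in liver, while heart-only elements reach 40.2% in forebrain and 52.0% in liver. Classes are those from whole lists.

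Taking all stages together, 1211 forebrain-only elements (65.1%, interval 62.9 to 67.2) had no peak in any heart or liver list at any stage. For heart-only elements, 3066 (23.7%, 23.0 to 24.5) had no peak in any forebrain or liver list. Both classes here are those from whole lists, and the heart-only elements were set against shorter E11.5 lists. Absence from the E11.5 lists of the other tissue was set by the rule. The same share over all elements was not counted. Marking at all 6 later stages of the same tissue was found for 467 forebrain-only elements (25.1%) and 2046 heart-only elements (15.8%). Of the shared elements, 78.7% were marked at all 6 later forebrain stages and 6.89% at all 6 later heart stages. Leaving out P21 in both tissues, the numbers at all 5 remaining stages were 834 (44.8%) and 6388 (49.4%). The order of the 2 shares turned when the P21 lists were left out. No later stage of the same tissue marked 65 forebrain-only elements (3.49%) and 861 heart-only elements (6.66%). A swap at E14.5, with a peak in the other tissue and none in the same one, was seen for 14 forebrain-only elements (0.752%) and 236 heart-only elements (1.83%). Elements that 1 replicate alone had marked were at 73.4% and 68.5% in the E14.5 forebrain list for forebrain replicates 1 and 2, above the 48.2% of all elements. Those of heart replicates 1 and 2 were at 43.1% and 52.7% in the E14.5 heart list, below the 69.2% of all elements. The 2 comparisons are not alike. Of all elements, 42.3% were marked in either E11.5 forebrain list and 88.9% in either E11.5 heart list.

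Along the chromosomes, neighbours of the same class were more frequent than the share of the class among all elements, most of all for forebrain-only elements, which is a description with no test. From one forebrain-only element to the next the median gap was 138.9 kb, against 19.0 kb for heart-only and 46.1 kb for shared elements. The gap depends on how many elements a class has. The element next along the chromosome was of the same class for 18.2% of the forebrain-only elements, which are 4.74% of all elements, for 39.5% of the heart-only elements, which are 32.9%, and for 28.9% of the shared elements, which are 21.5%. In windows of 100 kb, 61 held 3 or more forebrain-only elements and 44 of these held no heart-only element. For heart-only elements 1452 windows held 3 or more, 1375 of them with no forebrain-only element. Most windows lacked the other class in any case. Of all 1527 windows with a forebrain-only element, 34.4% also held a heart-only one. Of all 7117 windows with a heart-only element, 7.39% also held a forebrain-only one.

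The fullest forebrain-only windows held 5 elements each. Those at chr2:146100001-146200000 and chr7:80300001-80400000 held those 5 and no other element. The window at chr9:45400001-45500000 held 5 beside 4 of incomplete pattern. The fullest heart-only windows, chr1:74000001-74100000 and chr12:74800001-74900000, held 10 heart-only elements each and no forebrain-only or shared element. Chromosome 12 had the highest forebrain-only share, 7.07% of its elements, and chromosome X the lowest, 2.38%, against 4.74% over all elements, leaving out Y, which held 1 element, a heart-only one. The heart-only share on X was 30.8%, against 32.9% overall. X held 1.91% and 1.19% of the peaks of forebrain replicates 1 and 2, and 1.69% and 1.66% of the heart peaks, so the low forebrain-only share on X stood beside a low share of X peaks in forebrain replicate 2, whose part in the result was not tested.

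Few of the tissue-only elements had a peak of the other tissue within 1 kb. A peak of the other tissue lay within 1 kb, without touching, for 65 forebrain-only elements (3.49%) and 112 heart-only elements (0.866%). Within 10 kb the numbers were 520 (27.9%) and 2702 (20.9%). The forebrain-only elements were set against the longer lists, and the same shares over all elements were not counted.

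Shared elements were marked in both tissues but often not to the same extent. The width of an element that peaks covered was not used by the rule, and was tested on the log2 scale with limma after each list was centred on its median, with Benjamini-Hochberg adjustment over all 8419 shared elements. At an adjusted p under 0.05, 790 elements (9.38%) were wider in forebrain and 869 (10.3%) were wider in heart. At an unadjusted p under 0.05 there were 2911. The median log2 difference, forebrain minus heart, was 0.815 in the first group and -0.911 in the second, and 282 and 360 elements differed by 1 or more on that scale, which is a doubling. For comparison, the median absolute difference over all shared elements was 0.133 between the forebrain replicates, 0.102 between the heart replicates and 0.228 between the tissues.

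These calls are relative to the median element. Before centring, the median covered width of a shared element was 2394 and 2127 bp in the forebrain lists and 2773 and 2717 bp in the heart lists, a median shift of -0.276 on the log2 scale. Without centring 365 were called wider in forebrain and 1722 wider in heart. Leaving out a library lowered the number of calls. The count wider in forebrain was 515 and 503 without forebrain replicates 1 and 2 and 375 and 420 without heart replicates 1 and 2. The count wider in heart was 849 and 627 without forebrain replicates 1 and 2 and 475 and 488 without heart replicates 1 and 2.

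The largest difference towards forebrain was at chr13:83852015-83885935. Peaks covered 32774 and 33822 bp of it in the forebrain lists, against 2792 and 1812 bp in the heart lists, a centred log2 difference of 4.17 (SE 0.226, limma adjusted p = 0.00313). Peaks thus covered over 30 kb of it in forebrain and under 3 kb in heart. It was marked at all 6 later forebrain stages, at 1 later heart stage and at no liver stage. The element at chr7:77488239-77516593 covered 28355 and 22813 bp in forebrain, against 4291 and 2574 bp in heart (log2 difference 3.22, SE 0.254, limma adjusted p = 0.00429). At chr13:78325802-78344668 the values were 18867 and 17425 bp in forebrain and 2897 and 2100 bp in heart, a log2 difference of 3.16. The 10 largest differences ran from 2.43 to 4.17.

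Towards heart the largest difference was at chr11:85640156-85658745, with 1510 and 1465 bp covered in forebrain and 18479 and 12117 bp in heart (log2 difference -3.05, SE 0.214, limma adjusted p = 0.00391). The element at chr4:118776294-118794624 covered 1995 and 1833 bp in forebrain, against 18331 and 18122 bp in heart (log2 difference -2.97, SE 0.0888, limma adjusted p = 0.00305). The widest of all shared elements, chr7:149714928-149767085, covered 5820 and 4621 bp in forebrain and 52001 and 43464 bp in heart, and the log2 difference was -2.91. In each of these elements both lists of one tissue lay above both of the other with a wide gap. The 10 largest differences towards heart ran from -3.05 to -2.65. At chr1:134212164-134223075 and chr19:6275317-6292458 replicates of one tissue diverged, with 1372 and 3200 bp in the heart lists of the first and 2906 and 1060 bp in the forebrain lists of the second, and their limma adjusted p of 0.0194 and 0.0198 went above 0.05 without either forebrain replicate at the first and without either heart replicate at the second.

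**Figure D5:**
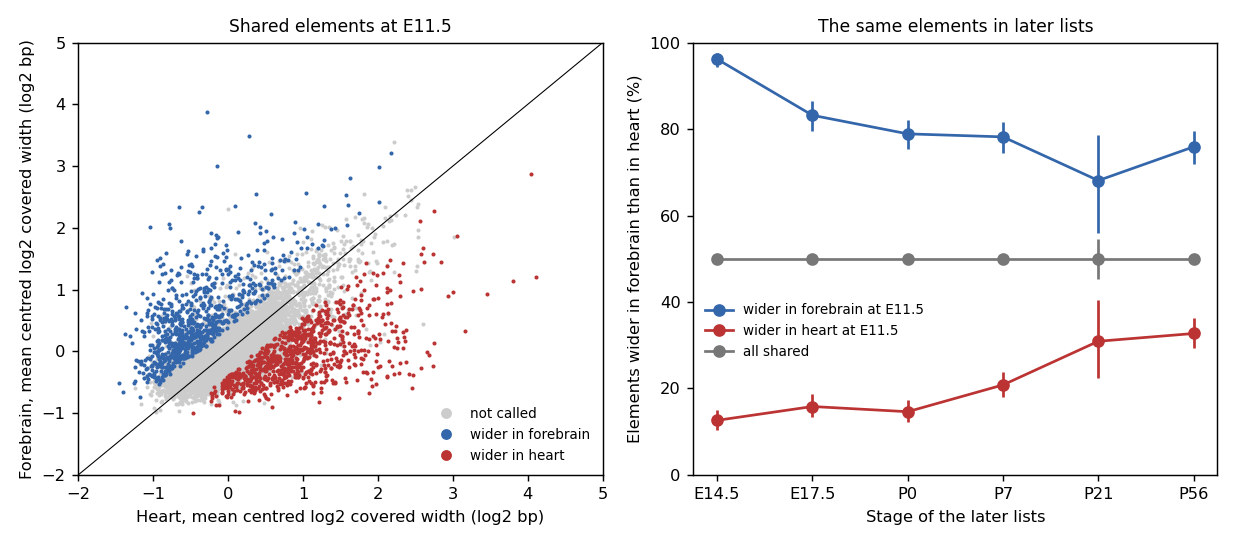
Left, mean centred log2 covered width of the 8419 shared elements in the forebrain lists (y axis) and the heart lists (x axis), with elements wider in forebrain (790) and in heart (869) coloured; right, percent of the elements of each call that were wider in forebrain than in heart (y axis) in the lists of later stages (x axis), with 95% Clopper-Pearson intervals as bars. At E14.5 the share is 96.2% for elements wider in forebrain at E11.5 and 12.6% for those wider in heart, on either side of the 50% that centring sets for all shared elements.

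The same width differences were looked for in the later lists, each pair of lists centred so that 50% of all shared elements were wider in forebrain. At E14.5, 680 of the 790 elements wider in forebrain had a peak in both tissues, and 96.2% of these (94.4 to 97.5) were again wider in forebrain. Of the 869 elements wider in heart 835 could be compared, and 12.6% (10.4 to 15.0) were wider in forebrain. The 2 shares lay closer together at each later stage than at E14.5. The median log2 differences did not all shrink. In the second group the median was -0.647 at E17.5 and -0.552 at P0, against -0.544 at E14.5. In the first group it was 0.388 and 0.258, against 0.445. At P56, where both libraries are IO, 514 and 779 elements could be compared and the shares were 75.9% and 32.7%. The median log2 difference was 0.0993 for the first group and -0.163 for the second, against 0.445 and -0.544 at E14.5. Elements without a peak in both tissues drop out, so the stages do not compare the same elements. At P21, where the heart list held 7376 peaks, 72 and 110 elements could be compared and the shares were 68.1% and 30.9%.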

How the data were processed

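The authors deposited 1 peak list per library (position and rank, no score) and a summary table of read counts and peak counts per library. Build mm9, MACS 1.4 and BWA appear in the submitters' processing notes, with roles not given in the sources used here. Per the file headers, H3K27ac track names include withInput and pe05. Peak numbers in the authors' table (19811 and 14461 for forebrain, 33513 and 30591 for heart) exceed those in the lists, by a filter that the sources used here do not state. Depths are the authors' uniquely mapped read counts; peak lists record presence, so a weak region below the calling threshold counts as unmarked.

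Peaks were joined at 1 bp of overlap. An element's rank in a list is its best peak's; percentiles run from 100 for the best to 0 for the last. Jaccard indices were tested by exact permutation over lists, and covered widths of shared elements with limma 3.58.1 (R 4.3.3), forebrain minus heart, 2 lists a tissue, called at an adjusted p under 0.05; the width test was tested on simulated data. Intervals are 95% Clopper-Pearson intervals. The other tools were scipy 1.17.1, numpy 2.4.6, matplotlib 3.10.9, pandas 2.3.3 and Python 3.11.15.

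Named elements are drawn from the 10 forebrain-only, 10 heart-only and 5 shared with the highest mean rank percentile, the 5 widest of each class, the 5 windows of 100 kb with the most elements of each tissue-only class, and the 10 largest width differences each way. The classes, tests and naming rule were chosen with earlier results of these data known. Alternatives covered overlap, list length, peak width, input peaks, autosomes, replicates, the replicate block and name series. Replicate numbers come from the labels; the deviations of same-numbered lists correlated at 0.00355 (width) and -0.0388 (presence), so the numbers were not taken to pair the lists. Genes, promoters and sequence motifs were not analysed here, since no mm9 genome or annotation was used here.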

Additional observations from a re-analysis of the deposited data

How the results depend on the processing

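The forebrain-only, heart-only and shared counts stayed within 1.5 times of their values with a 50% overlap, peaks trimmed to 1 kb, input peaks removed, autosomes only and, for the tissue-only classes, no peak of the other tissue within 1 kb. In the best ranked 50% of each list they were 720, 6195 and 4442. With a peak in either replicate there were 4343 forebrain-only and 22643 heart-only elements. Heart-only elements numbered 2608 at equal list lengths, and 2192 when absence was judged against the whole forebrain lists. Leaving out 1 replicate gave 1985 to 3889 forebrain-only, 13288 to 20023 heart-only and 8543 to 10795 shared elements. The Jaccard difference was 0.327 to 0.406 with 1 replicate left out, and 0.361 with an exact p of 0.50 with the replicate block, the smallest that block allows.

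Elements wider in forebrain numbered 365 without centring, 346 at equal list lengths and 375 to 515 with 1 replicate left out; those wider in heart numbered 1722 without centring and 475 to 849 with 1 replicate left out. With 1 replicate left out, the lone list is assumed to vary like the other tissue. With the replicate block the counts were 685 and 802, of which 624 and 737 were called without it, and the block ended no call among the named elements. At chr1:134212164-134223075 the adjusted p was 0.0705 and 0.0899 without one or the other forebrain replicate. At chr19:6275317-6292458 it was 0.0704 and 0.0508 without one or the other heart replicate and 0.0945 for the widest peak. The cause was not tested.

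The mean share of elements marked in later lists of the same tissue, minus that in the other tissue, was 55.5 points for forebrain-only and 40.0 points for heart-only elements. It was 18.6 and 13.2 points with the best 7376 peaks of each later list, which keeps fewer peaks, and 41.1 and 29.0 points at P56 alone, where both libraries are IO. Without heart P21 it was 49.2 points for heart-only elements. With classes rebuilt from equal list lengths it was 43.7 and 37.6 points. No alternative turned the sign of these mean differences, of the Jaccard difference or of a named width difference that could be compared. At equal list lengths some of the named shared elements had no counterpart with the same bounds, so their differences were not compared there. Some orders did turn. At equal list lengths, which themselves bring the counts together, forebrain-only elements (2643) outnumbered heart-only elements (2608). At P21 the rebuilt heart-only elements were marked at 33.9% in forebrain and 31.5% in heart. The share marked at all later stages was higher for forebrain-only elements with P21 and lower without it. The alternatives for gene lists, promoters and motifs were not run, and with 1 list per later stage the spread between libraries is unknown there.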
